A study of Mus musculus with 19 samples.

Results

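*Foxo1*, *Foxo3* and *Foxp1*, chosen by name as 3 of the 28692 genes counted, encode forkhead transcription factors of T cells. They were followed across the genotypes, developmental stages and cell classes of mouse thymocytes measured by CITE-seq, which counts the RNA and, through antibodies that carry DNA tags, the surface proteins of the same single cells. The study asked how thymocytes that express CD4 and CD8 together (double positive, DP) become single positive (SP) CD4 or CD8 T cells, and therefore measured mice in which 1 of the 2 lineages is largely missing beside wild-type C57BL/6 mice. All 17 mice were females 4 to 8 weeks old. The 6 CD4-fated mice were 2 AND mice and 2 OT-II mice, which carry transgenic T cell receptors (TCRs) for peptides on MHC class II, and 2 MHCI-/- mice, which lack *B2m* and have diverse TCRs. The 6 CD8-fated mice were 2 F5 mice and 2 OT-I mice, which carry transgenic TCRs for peptides on MHC class I, and 2 MHCII-/- mice, which lack *H2-Ab1* and have diverse TCRs. Both AND and F5 animals lacked *Rag1* besides and cannot rearrange other receptors. Cells of both MHC-deficient genotypes and of wild-type replicates 1 to 3 were sorted as CD5+TCRβ+, and all other samples were whole thymocytes. The OT mice and wild-type replicates 4 and 5 formed an experiment apart from the rest, so this experiment and the OT family cannot be told apart.

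The files held 19 lanes, 2 for each of wild-type replicates 4 and 5, with 2550 to 9408 barcodes per lane. After the filters 69268 cells were kept, with a median of 1519 to 7259 RNA molecules (unique molecular identifiers, UMIs) per cell over the lanes. Of the barcode sequences of cells passing the filters, 695 (0.974%) occurred in more than 1 lane. *Foxo1* gave 20934 UMIs and was seen in 22.0% of the cells kept, *Foxo3* gave 7913 UMIs in 10.3%, and *Foxp1* gave 113779 UMIs in 69.8%. At these depths a single cell says little about *Foxo1* or *Foxo3*, so UMIs were summed over the cells of each mouse, and the mouse was the replicate in every test. Levels are given as counts per 1e6 UMIs of a sum (CPM). A sum cannot tell fewer expressing cells from less RNA per cell. RNA levels do not give the amount, phosphorylation or location of the proteins, for which the panel had no antibody.

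FOXO1 and FOXO3 work under the control of PI3K and AKT: AKT, switched on by receptor signals, phosphorylates them and holds them out of the nucleus, and quiet cells let them back in. In T cells FOXO1 switches on *Klf2*, *Ccr7* and *Il7r* (CD127), a program of recirculation and survival, and KLF2 in turn switches on *S1pr1*, the receptor with which mature thymocytes leave the thymus. FOXP1 is a repressor that keeps naive T cells quiescent and can compete with FOXO1 at *Il7r*.

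In the annotation of build GRCm38 (GENCODE vM21), *Foxo1* (ENSMUSG00000044167) lies at chr3:52268336-52353221 on the plus strand, *Foxo3* (ENSMUSG00000048756) at chr10:42181841-42276755 on the minus strand and *Foxp1* (ENSMUSG00000030067) at chr6:98925338-99522721 on the minus strand. *Foxo3* overlaps no other annotated gene. *Foxo1* overlaps *Gm38034* on its own strand and *Gm20402* on the opposite strand, and *Foxp1* overlaps *Gm49348*, *Gm20696*, *Gm20705* and *Gm22328*, all on its own strand. Of these, *Gm20402* and *Gm20696* are counted in the files, and reads from parts shared with *Gm20696* cannot be split from those of *Foxp1*. The 250 bases before a start of each gene (RefSeq, GRCm38.p6, 5′ to 3′ on the strand of the gene) are shown with those of *Bcl2l11*, a FOXO-linked gene that differed between the lineages. Capitals mark the forkhead motif GTAAACA, searched as GTAAACA and TGTTTAC to cover both strands.
Foxo1, chr3:52268087-52268336: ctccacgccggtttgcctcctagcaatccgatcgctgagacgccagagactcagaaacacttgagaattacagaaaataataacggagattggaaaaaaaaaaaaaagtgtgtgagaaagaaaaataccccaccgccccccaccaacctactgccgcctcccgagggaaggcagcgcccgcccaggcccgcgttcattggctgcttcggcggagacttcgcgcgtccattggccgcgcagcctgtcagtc
Foxo3, chr10:42276696-42276945: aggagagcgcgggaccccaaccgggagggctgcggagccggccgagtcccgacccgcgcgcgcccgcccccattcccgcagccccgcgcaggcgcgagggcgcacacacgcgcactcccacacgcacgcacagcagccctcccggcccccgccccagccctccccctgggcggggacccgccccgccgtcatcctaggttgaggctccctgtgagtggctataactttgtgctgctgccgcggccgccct
Foxp1, chr6:99520994-99521243: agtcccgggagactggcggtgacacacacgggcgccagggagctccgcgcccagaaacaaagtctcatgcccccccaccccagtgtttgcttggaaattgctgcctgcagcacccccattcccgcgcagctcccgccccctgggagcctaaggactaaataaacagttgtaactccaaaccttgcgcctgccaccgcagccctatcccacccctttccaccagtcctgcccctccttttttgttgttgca
Bcl2l11, chr2:128125788-128126037: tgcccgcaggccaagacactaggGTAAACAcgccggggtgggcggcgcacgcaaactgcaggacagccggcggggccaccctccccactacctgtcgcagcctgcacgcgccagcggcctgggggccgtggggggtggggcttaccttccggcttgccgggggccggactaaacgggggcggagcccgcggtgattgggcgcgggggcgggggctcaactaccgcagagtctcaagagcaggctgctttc
None of the 5 promoters listed for the forkhead genes (250 bases before to 50 after a start; *Foxp1* has 3) held the motif, nor did 18 of the 20 FOXO-linked genes with a promoter in the table. It stood near the upstream end of the *Bcl2l11* sequence shown, while the other promoter listed for this gene had no match. Among all 32851 promoters listed, 1199 (3.65%) held it. A match is a run of letters and not a shown binding site, and promoters without it say nothing of the factors.

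The clearest change in the 3 genes was the rise of *Foxo1* as cells passed from signaled DP to mature SP stages. To follow it, 25391 cells were taken from the clusters whose markers lay closest to the classes from signaled DP-like to mature SP-like. An unnamed cluster led by *Id2* (3736 cells) was among them. The cells were ordered by RNA (diffusion pseudotime, built without the 3 genes and without the listed genes of their pathways) and divided into 5 bins of equal cell number, bin 1 the earliest. In lineage-restricted mice 398 cells lay on the branch of the other lineage and were left out of the sums. Each of the 12 lineage-restricted mice entered every bin except F5 replicate 2, which had 17 cells in bin 5 and was left out there. In CD4-fated mice *Foxo1* went from 28.0 ± 11.8 CPM in bin 1 through 36.5 ± 7.37, 63.9 ± 14.0 and 112.8 ± 19.1 to 143 ± 22.3 CPM in bin 5 (mean ± SD, n = 6). In CD8-fated mice it went from 39.0 ± 12.5 through 68.5 ± 15.4, 75.7 ± 24.0 and 109.4 ± 23.5 to 108.5 ± 33.2 CPM (n = 6, in bin 5 n = 5). Every mouse with a value in both bins was higher in bin 5 than in bin 1. In the 5 wild-type mice, in which both lineages form, *Foxo1* went from 19.8 ± 3.21 CPM in bin 1 to 125 ± 21.0 in bin 4 and 117 ± 20.5 in bin 5.

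The rise passed the test in both lineages. Against bin 1, bin 5 was higher by 2.85 ± 0.14 for the CD4-fated and by 1.85 ± 0.13 for the CD8-fated lineage (log2 ± SE), with adjusted p of 7.8e-26 and 2.6e-15 (edgeR quasi-likelihood F test over the 4 later bins, mouse as block, Benjamini-Hochberg over all genes). Changes over the bins were common: 45.9% of all genes tested passed in the CD4-fated and 58.1% in the CD8-fated course. *Foxp1* passed in both as well, by 0.87 ± 0.08 (adjusted p = 4.4e-12, edgeR) and 0.43 ± 0.10 (adjusted p = 5.7e-07, edgeR). *Foxo3* gave 0.18 ± 0.23 in CD4-fated mice (adjusted p = 0.59, edgeR, 95% interval -0.26 to 0.63). In CD8-fated mice it gave -0.30 ± 0.17 (adjusted p = 0.038, edgeR), a call that was lost with DESeq2 (adjusted p = 0.073), with RLE scaling (0.057), without the low-count filter (0.061) and with the order by surface protein (0.58). It was also lost when F5 replicate 2, either MHCII-/- mouse or OT-I replicate 1 was left out (adjusted p 0.054 to 0.37). These fold changes rest on TMM scaling, which rescales the sums for a few strongly changing genes. Without it all genes shifted by -0.36 (CD4-fated) and -0.31 (CD8-fated) at the median, and *Foxo1* gave 2.49 and 1.55, *Foxp1* 0.52 and 0.14, and *Foxo3* -0.18 and -0.61, the latter with an adjusted p of 4.7e-04 (edgeR), so that the direction of *Foxo3* in CD4-fated mice depends on the scaling.

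**Figure D1:**
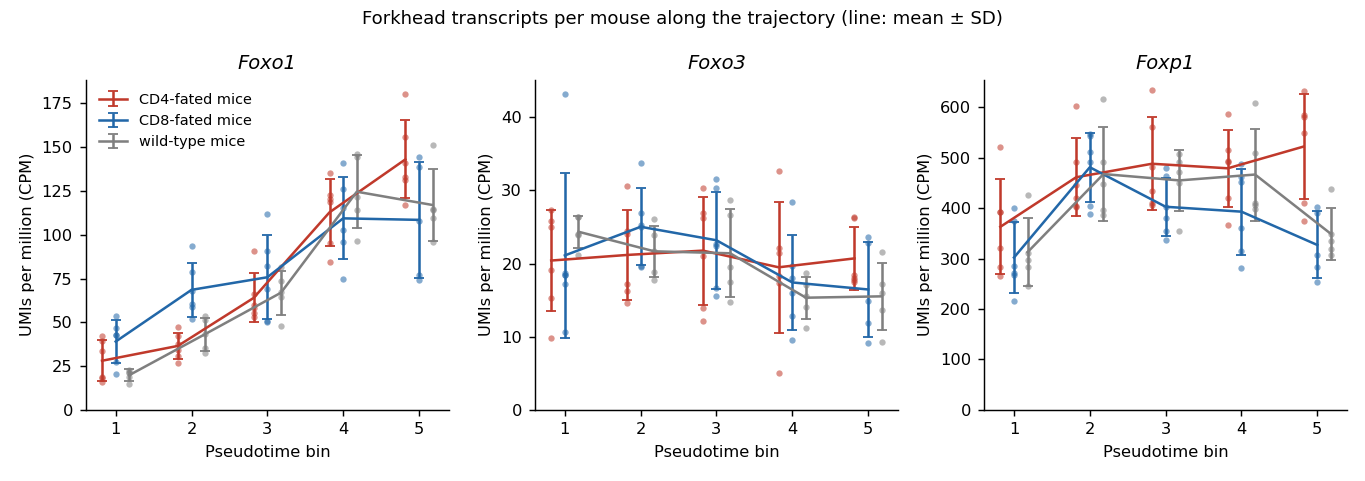
Levels of *Foxo1*, *Foxo3* and *Foxp1* (CPM, vertical axes) in the 5 pseudotime bins (horizontal axes) for CD4-fated (red), CD8-fated (blue) and wild-type (grey) mice, with a dot per mouse and lines for mean ± SD. *Foxo1* climbs from 28.0 to 143 CPM in CD4-fated mice and levels off at 108.5 CPM in CD8-fated mice, *Foxo3* stays between 15.3 and 25.03 CPM in the means, and *Foxp1* in CD8-fated mice falls from 481 (bin 2) to 327 CPM (bin 5). This fall is in the share of UMIs: *Foxp1* UMIs per cell went from 2.10 to 2.54 there, and all UMIs per cell from 4459 to 8284.

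As a share of all UMIs, *Foxo1* and *Foxp1* took different courses in the lineages. In the test of the difference between the courses, *Foxo1* gave 1.01 ± 0.22 (log2 difference of the bin 5 to bin 1 change, CD4-fated minus CD8-fated, adjusted p = 1.9e-08) and *Foxp1* 0.46 ± 0.13 (adjusted p = 1.2e-04), both by edgeR's quasi-likelihood F test over the 4 bin-by-lineage terms with the mouse as block. *Foxo3* gave 0.51 ± 0.29 (adjusted p = 0.10). Of all genes tested, 20.4% passed in this comparison.

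*Foxo1* was lower in CD4-fated than in CD8-fated mice in bin 2. The levels there were 47.1 and 34.1 CPM in AND, 27.0 and 30.996 in MHCI-/- and 37.7 and 42.1 in OT-II mice. In the CD8-fated mice they were 67.8 and 93.7 in F5, 60.6 and 51.7 in MHCII-/- and 58.6 and 78.7 CPM in OT-I mice. The highest CD4-fated mouse (47.1 CPM) lay below the lowest CD8-fated mouse (51.7 CPM). The difference was -0.88 ± 0.16 (log2 ± SE, 95% interval -1.21 to -0.56, 6 against 6 mice, adjusted p = 0.0087 by edgeR's quasi-likelihood test with the genotype family as covariate). *Foxo1* was the only 1 of the 3 genes called in bin 2, where 1.64% of all genes tested were called. Within each family of genotypes the mice did not overlap, with log2 differences of -0.99 for AND against F5, -0.95 for MHCI-/- against MHCII-/- and -0.78 for OT-II against OT-I. A family has at most 2 mice per genotype, so lack of overlap within families, here and below, carries little weight. *Foxo1* in bin 1 and *Foxp1* in bin 4, neither called in the main test, did not overlap within any family either. How many of all genes do so was not counted. Without the family covariate the adjusted p of *Foxo1* in bin 2 was 0.053 (edgeR), and with each mouse left out in turn it stayed between 0.0023 and 0.037. The other 2 genes gave -0.20 ± 0.21 (*Foxo3*) and -0.04 ± 0.16 (*Foxp1*, 95% interval -0.35 to 0.27) in this bin.

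The same bin need not hold cells at the same step of maturation in both lineages. Between CD4-fated and CD8-fated mice in bin 2, *Cd69*, a marker of recent TCR signaling, averaged 197.9 ± 73.0 CPM in the former and 102 ± 28.3 CPM in the latter lineage, and *Cd8a* was at 122 and 483 CPM in the means. The cells of bin 2 also lay in different clusters of the ordering: 1 cluster held 55.7% of the CD4-fated and 5.40% of the CD8-fated cells, and another 13.7 and 70.3%. Their median rank along pseudotime (0 to 1) was 0.289 for CD4-fated and 0.315 for CD8-fated cells. Whether stage accounts for the *Foxo1* difference in bin 2 was not tested.

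**Figure D2:**
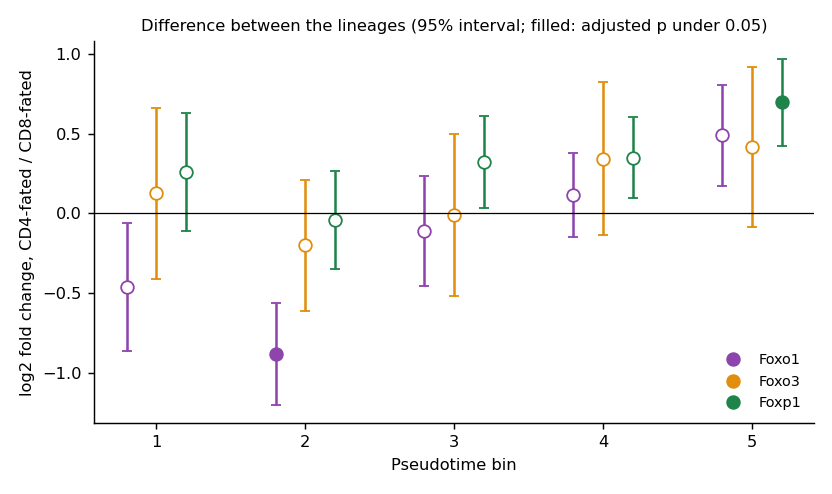
Log2 fold change of CD4-fated over CD8-fated mice (vertical axis) in each pseudotime bin (horizontal axis) for *Foxo1* (purple), *Foxo3* (orange) and *Foxp1* (green), with 95% intervals and filled points where the adjusted p passed 0.05. *Foxo1* moves from -0.88 in bin 2 to 0.49 in bin 5, and *Foxp1* is filled in bin 5 alone, at 0.70.

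In bin 1 *Foxo1* gave -0.46 ± 0.21, which did not pass (adjusted p = 1.0, edgeR; 0.0679% of all genes were called there). In bins 3 and 4, where 4.55% and 5.98% of all genes were called, none of the 3 genes passed. *Foxo1* gave -0.11 (95% interval -0.46 to 0.24) and 0.12 (-0.15 to 0.38) in these bins. *Foxp1* gave 0.32 (0.04 to 0.61, adjusted p = 0.29) and 0.35 (0.09 to 0.61, adjusted p = 0.14, both edgeR), and passed in bin 4 with DESeq2 (adjusted p = 0.031), with the order by surface protein (0.030) and with the replicate number as a block (0.014). In bins 3 and 4, 1 cluster of the ordering held 40.0% and 51.1% of CD8-fated but 0.65% and 1.80% of wild-type cells. Of its 2233 cells, 931 came from F5 replicate 2. The paper removed outlier cells specific to CD8 transgenic mice, and no such step was taken here. Whether this cluster holds such cells, and its part in any lineage difference of these bins, was not tested.

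*Foxp1* was higher in CD4-fated than in CD8-fated mice in bin 5, the latest cells in pseudotime. The levels were 549.7 and 632.4 CPM in AND, 375.0 and 410.2 in MHCI-/- and 580.5 and 584.9 in OT-II mice. In the CD8-fated mice they were 403.1 in the F5 mouse, 282.3 and 252.8 in MHCII-/- and 306.8 and 389.6 CPM in OT-I mice. The groups overlapped over all families, because MHCI-/- mice lay near F5 and OT-I mice, but not within any family, where the log2 differences were 0.55, 0.55 and 0.74 in the same order of families. The fitted difference was 0.70 ± 0.14 (95% interval 0.42 to 0.97, 6 against 5 mice, adjusted p = 0.0039, edgeR quasi-likelihood), in a bin in which 13.3% of all genes were called. It held with each mouse left out (adjusted p 0.0025 to 0.021) and did not pass when cells were ordered by surface protein instead of RNA (0.44, adjusted p = 0.14). In bin 5 all 1391 CD4-fated cells lay in 1 cluster of the ordering, and 1461 and 664 of the 2144 CD8-fated cells in 2 others. The 398 cells on the branch of the other lineage had been left out, so this lack of shared clusters was fixed beforehand. The median ranks were 0.861 for CD4-fated and 0.932 for CD8-fated cells. Whether stage accounts for the difference was not tested. *Foxo1* gave 0.49 ± 0.16 in bin 5 (adjusted p = 0.057, edgeR), and passed with DESeq2 (adjusted p = 0.038) and when F5 replicate 1, OT-I replicate 2 or OT-II replicate 1 was left out (0.015 to 0.047). With the replicate number as a block it passed as well (adjusted p = 0.0071, edgeR). Within families the *Foxo1* difference was 0.05, 0.77 and 0.31, and the mice of MHCI-/- and MHCII-/- alone did not overlap. *Foxo3* gave 0.42 (95% interval -0.08 to 0.92, adjusted p = 0.33, edgeR).

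The *Foxp1* difference in bin 5 was seen as a share of all UMIs. Per cell, *Foxp1* UMIs were 2.41 ± 0.83 (CD4-fated) against 2.54 ± 0.56 (CD8-fated), while all UMIs per cell were 4694 ± 1490 and 8284 ± 3197. CD8-fated cells of bin 5 were thus deeper, with about as many *Foxp1* UMIs. The cells of all bins of a lineage-restricted mouse came from 1 lane. From bin 1 to bin 5 the median depth went from 3621 to 9174 and from 4364.5 to 11392.5 UMIs in the MHCII-/- mice, and from 2634 to 4210 and from 3926 to 6569 UMIs in the MHCI-/- mice. *Foxo1* in bin 2 differed in both measures, with 0.150 ± 0.0493 UMIs per cell (CD4-fated) against 0.297 ± 0.0685 (CD8-fated) at total depths of 4168 and 4459 UMIs. In bin 5 *Foxo1* had 0.654 ± 0.185 (CD4-fated) against 0.819 ± 0.156 (CD8-fated) UMIs per cell, the other order than as a share of UMIs.

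**Figure D3:**
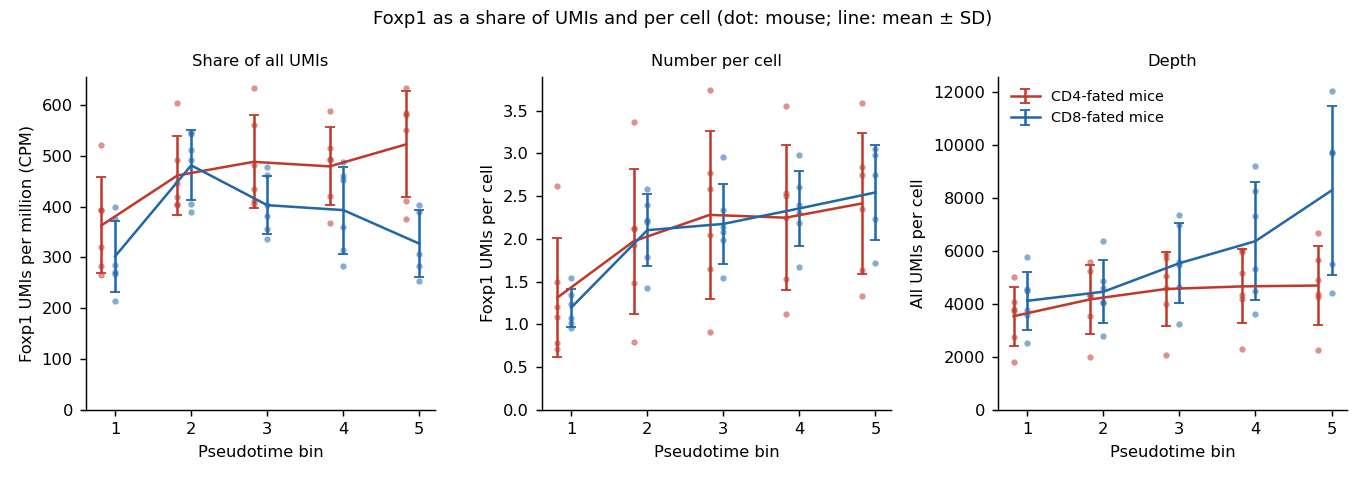
*Foxp1* as a share of all UMIs (CPM, left), *Foxp1* UMIs per cell (middle) and all UMIs per cell (right) by pseudotime bin in CD4-fated (red) and CD8-fated (blue) mice, with a dot per mouse and lines for mean ± SD. In bin 5 the lineages part in CPM and in depth (4694 against 8284 UMIs) but lie together in *Foxp1* per cell (2.41 and 2.54 UMIs).

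The share of cells with at least 1 UMI was compared after each cell was thinned to 1500 UMIs, which left out 0 to 1.86% of cells per restricted lineage and bin as too shallow. In single lineage-restricted mice it left out up to 19.1% (OT-II replicate 2, bin 1; 15.2% in bin 2), and in wild-type mice together 12.5% in bin 1. Wild-type replicate 5 lost 53.4% in bin 1 and 18.3% in bin 2. In bin 2 *Foxo1* was seen in 4.23 ± 1.54% of cells of CD4-fated and 9.88 ± 2.505% of CD8-fated mice (exact permutation test over mice, two-sided, adjusted p = 0.039 over 15 tests; unthinned 13.04 and 24.5%; median depth 4230 and 4304 UMIs). For comparison, in wild-type mice the thinned share was 1.84 ± 1.86% in the Hells-led class, and 0 in myeloid-like cells of the 2 mice with enough deep cells (median depths 13801.5 and 2756 UMIs). In bins 3, 4 and 5 *Foxp1* was seen in 51.3, 52.0 and 52.3% of thinned cells of CD4-fated mice and 42.8, 42.5 and 38.8% of those of CD8-fated mice (exact permutation test, adjusted p = 0.039 each). These *Foxp1* calls were lost at 1000 and at 2500 UMIs per cell (adjusted p 0.13 to 0.48, exact permutation test), where the *Foxo1* call in bin 2 held (0.032 at both), and no share passed unthinned. The lowest wild-type class for *Foxp1* was NKT-like, at 12.5 ± 7.81%. Unthinned, the bin 5 shares were 85.3 and 86.7%, in the other order. *Foxo3* in bin 2 also passed (2.58 and 4.18%), but at 1000 UMIs per cell the difference was 0.143 percentage points in the other direction, so no order is read from it. With each mouse left out in turn, 0 to 4 of the 15 share tests passed, against 5 with all mice.

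Markers of other cell types were counted in the same sums. In bin 5 the summed level of the 6 B cell markers was 2.48 to 9.22 CPM for CD4-fated but 22.3 to 54.8 CPM for CD8-fated mice, with *Pax5* at 0 in both. In bin 2 it was 1.62 to 30.6 and 7.03 to 17.9 CPM, with *Pax5* and *Ms4a1* at 0 in the latter. The 7 myeloid markers were at 44.0 to 93.1 and 65.8 to 102 CPM in bin 5, with *Csf1r* at 0, and at 84.3 to 145 and 78.7 to 135 CPM in bin 2. The 6 epithelial and stromal markers were at 77.9 to 166 and 37.8 to 79.5 CPM in bin 5, and at 49.8 to 89.3 and 63.7 to 96.3 CPM in bin 2, with *Col3a1* at 0. The 4 globin markers had a median of 11.7 and 4.57 CPM in bin 5 and reached 1370 CPM in 1 CD8-fated mouse. In bin 2 their median was 16.5 and 3.85 CPM, and the highest values were 831 CPM for CD4-fated and 30.04 CPM for CD8-fated mice. Their part in the differences was not tested.

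The FOXO-linked genes were read beside *Foxo1*. This list of 25 genes, drawn from general knowledge of FOXO biology, had 20 genes tested over the bins in CD4-fated mice, of which 10 rose and 7 fell (45.9% of all genes called; list median 0.35, all genes -0.04, log2), and 23 in CD8-fated mice, of which 10 rose and 10 fell (58.1% of all genes called; list median -0.02, all genes -0.02). Among the genes that rose in both courses were *S1pr1*, the exit receptor (7.25 in the CD4-fated, 5.41 in the CD8-fated course), *Klf2*, its activator (5.39 and 4.17), *Ccr7*, a homing receptor (3.76 and 3.75), and *Tsc22d3* (3.11 and 1.80). *Il7r*, the gene of CD127, was higher in bin 5 than in bin 1 by 1.90 and 1.965, but its means peaked in bin 2. They were 51.8, 188, 163, 114 and 135 CPM over the bins in CD4-fated mice. In CD8-fated mice they were 26.4, 122, 56.5, 49.4 and 102 CPM. *Klf2* went from 54.9 ± 63.7 to 1059 ± 413 CPM in CD4-fated mice and from 64.7 ± 47.2 to 824 ± 465 CPM in CD8-fated mice, and *S1pr1* from 3.24 ± 3.04 to 398 ± 90.3 CPM and from 8.03 ± 12.4 to 234.9 ± 136 CPM. The list also held genes that fell while *Foxo1* rose, among them *Bcl2l11*, which encodes the pro-apoptotic BIM (-2.36 and -1.90), *Gadd45a* (-2.41 and -3.10) and the repressor *Bcl6* (-2.66 and -3.86). *Eomes* rose by 8.41 in CD8-fated mice and passed no low-count filter in CD4-fated mice.

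*Rag1*, whose product cuts receptor genes, was at a mean of 8.07 to 17.6 CPM for CD4-fated and 3.24 to 6.12 CPM for CD8-fated mice over the bins. AND and F5 mice, which lack *Rag1*, enter these means with 0 to 4.71 CPM, so no change over the courses is read from it. *Rag2* did not pass the low-count filter in any comparison over the bins. OT-II replicate 2 alone had 23.0 to 87.3 CPM of *Rag1* over the bins and the other CD4-fated mice at most 16.3 CPM.

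*Il7r* was higher in CD4-fated mice in the middle of the course. In bin 4 its level was 49.9 and 45.5 CPM in AND, 186.2 and 167.4 in MHCI-/- and 124.6 and 113.1 in OT-II mice. In the CD8-fated mice it was 23.4 and 2.19 in F5, 77.5 and 69.2 in MHCII-/- and 59.8 and 64.4 CPM in OT-I mice. The lineages overlapped over all families, as AND mice lay below MHCII-/- and OT-I mice, but not within a family. The fitted difference was 1.38 ± 0.25 in bin 4 (log2 ± SE, adjusted p = 0.0023) and 1.80 ± 0.31 in bin 3 (adjusted p = 0.0019, both edgeR). CD8-fated cells of these bins include the cluster described above that wild-type mice nearly lack, and its part in the *Il7r* and CD127 values was not tested. CD127 protein on the cells of bin 4 was 12.8 ± 8.59 per 10000 antibody UMIs for the CD4-fated against 5.53 ± 2.21 for the CD8-fated lineage (6 against 6 mice, exact permutation test, two-sided, adjusted p = 0.043 over 10 protein tests). AND replicate 2, at 29.9 per 10000, was far above the other mice. Its lane had the fewest antibody UMIs of all (4.48e6), and 42.1% of its barcodes passed the filters. Its CD127 was already at 26.2 in bin 1 and at 33.7 in bin 5. Whether these account for its level was not tested. The protein call was lost when any mouse other than the MHCII-/- mice was left out (adjusted p up to 0.087, exact permutation test), and the difference without AND replicate 2 was 3.79 per 10000. CD127 did not pass in the other 4 bins.

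**Figure D4:**
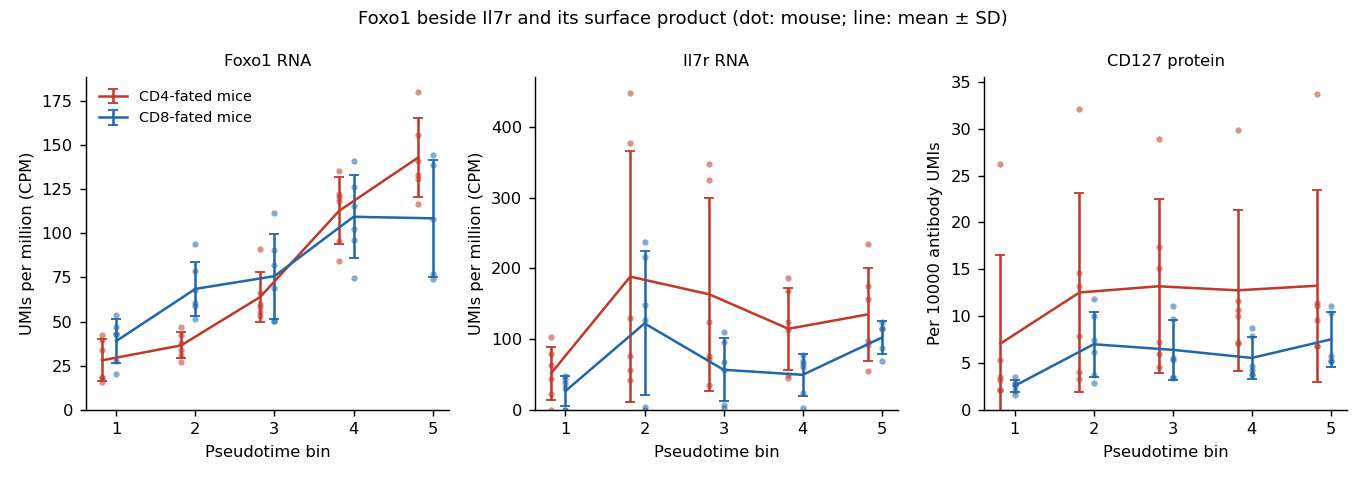
*Foxo1* RNA (CPM), *Il7r* RNA (CPM) and CD127 protein (per 10000 antibody UMIs) by pseudotime bin in CD4-fated (red) and CD8-fated (blue) mice, with a dot per mouse and lines for mean ± SD. *Il7r* and CD127 are higher in the mean of CD4-fated mice in all 5 bins, with *Il7r* at 114 and 49.4 CPM and CD127 at 12.8 and 5.53 per 10000 in bin 4.

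*Ccr7* was higher in CD4-fated mice in bins 3, 4 and 5 (0.86, 0.92 and 0.90). In bin 5, 5 of the 20 FOXO-linked genes tested were higher and 2 lower in CD4-fated mice (13.3% of all genes called; list median 0.45, all genes 0.01): besides *Ccr7* the higher ones were *Cited2* (1.00), the cell cycle inhibitor *Cdkn1b* (0.83), *S1pr1* (0.89) and *Ccng2* (0.72), and the lower ones were *Eomes* (-5.81), a factor of CD8 T cells, and *Bcl2l11* (-1.39). *Bcl2l11* was at 10.4 ± 1.81 CPM in bin 5 of CD4-fated mice against 27.5 ± 8.84 CPM in that of CD8-fated mice. *Klf2* gave 0.36 and *Il7r* 0.56 in this bin, and neither passed.

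Of the 11 forkhead genes that passed the low-count filter over the bins, *Foxo1* alone was called in bin 2, against 1.64% of all genes. *Foxp1* alone was called in bin 5, against 13.3% of all genes, and 1 such call does not set it apart there. Over the course in CD4-fated mice 4 of the forkhead genes rose and 2 fell (45.9% of all genes called). In CD8-fated mice 3 rose and 4 fell (58.1%), so that the family lay near the share over all genes. In all lists, rose and fell give the sign of bin 5 against bin 1 alone. *Foxp1*, counted as risen in CD8-fated mice, had means of 302, 481, 403, 393 and 327 CPM over the bins. Besides the 3 genes described, *Foxk1* rose in both (1.9645 and 1.78), *Foxp4*, a partner that can pair with FOXP1, fell in both (-0.61 and -0.53), and *Foxn3* gave -0.06 and -0.49, called by the test over all bins. Of 12 genes of FOXP1 cofactors tested in bin 5, 3 were lower in CD4-fated mice (13.3% of all genes called in either direction): *Gatad2a* (-0.91) and *Rbbp7* (-0.81), both of the NuRD complex, and *Hdac2* (-0.48). *Gatad2a* was also lower in bins 3 and 4 (-0.69 and -0.85).

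Genes of FOXO regulators were read in the same comparisons. They hold the PI3K and AKT pathway with its phosphatases and SGK kinases, the 14-3-3 proteins that bind phosphorylated FOXO, and other kinases and enzymes that modify or degrade FOXO proteins. Of these 41 genes, 38 were tested in CD4-fated mice, of which 8 rose and 18 fell, and 39 in CD8-fated mice, of which 9 rose and 18 fell, against 45.9% and 58.1% of all genes called. *Sgk1*, a kinase that can phosphorylate FOXO factors, rose by 2.41 and 1.89, the kinase subunit *Pik3cd* by 1.67 and 1.79 and the phosphatase *Inpp4b* by 1.60 and 1.31, while the kinase subunit *Pik3cg* fell (-1.72 and -1.62). Between the lineages *Sgk3* was lower in CD4-fated mice in bin 2 (-0.68, the only 1 of 38 called, against 1.64% of all genes), and *Inpp4b* was higher in bins 3, 4 and 5 (0.93, 1.01 and 0.97). In bin 5 *Pik3r2* was also higher (1.80) and *Prmt1* (-0.61) and *Ywhae* (-0.49) were lower. Of 11 quiescence genes in bin 5, 3 were higher in CD4-fated mice (13.3% of all genes called), *Slfn2* (0.83), *Btg2* (0.77) and *Cdkn1b*, which is also FOXO-linked, and the other 8 did not pass.

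Among the 5 genes most like *Foxo1* over the 10 lineage-by-bin means were *Rasgrp2* (Pearson r of log2(CPM + 1) 0.991), *Rpl13a* (0.991), *Rps10* (0.988) and *Fau* (0.985), of which *Rpl13a* and *Rps10* encode ribosomal proteins and *Fau* a ribosomal fusion. Of its textbook targets, *Klf2* had an r of 0.958 with *Foxo1*, *S1pr1* 0.968, *Ccr7* 0.792 and *Il7r* 0.263. *Rag1*, which AND and F5 mice lack, had -0.486, and *Rag2*, which has few UMIs in these bins, had -0.177. *Foxp1* was most like *Gm20696* (0.976), which lies inside it, then *Ppp1r18* (0.965), and *Foxo3* most like *Polr3gl* (0.937). The 10 points share libraries and sums, so these values are a description.

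In wild-type mice the 3 genes were measured in 18 classes of cells, each a cluster or group of clusters named where its leading genes held markers of a fixed list. The clusters were built without the 3 genes and the listed genes of their pathways. Other clusters are called by their leading gene. A name went by leading genes, so it need not be the closest class by all markers of a list. By mean marker level standardized over clusters, the CD4 SP-like class was closest to signaled DP-like (1.25, own list 0.90). So was the CD8 SP-like class led by *Runx3* (1.19, own list 1.07). Most *Foxo1* was found in the interferon-like class (113.9, 147.0 and 190.9 CPM, lowest, median and highest of 5 mice), the mature SP-like class led by *Igfbp4* (106.7, 142.3 and 178.9) and Treg-like cells (126.6, 141.6 and 167.5). These 3 overlapped each other. The CD8 SP-like class led by *Nkg7* came next (86.8, 96.7 and 122.9 CPM) and did not overlap Treg-like cells, and all later neighbours in the order overlapped. Quiescent DP-like cells had 29.7, 41.6 and 46.4 CPM and signaled DP-like cells 9.69, 20.5 and 26.2 CPM. The lowest class means were those of the DN-like class (11.96 and 14.7 CPM in the 2 mice with enough cells) and in the classes led by the replication genes *Hist1h1b* (15.04 ± 3.03) and *Hells* (17.2 ± 4.07, 3 mice).

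Against quiescent DP-like cells of the same mice, which serve as the reference in all 17 contrasts, *Foxo1* was higher in 8 classes, lower in 5 and did not pass in 4 (edgeR quasi-likelihood, mouse as block, Benjamini-Hochberg within a contrast). It was higher by 2.29 ± 0.10 in mature SP-like cells (log2 ± SE, adjusted p = 7.2e-34, edgeR; 51.6% of all genes tested were called in that contrast), by 2.29 in interferon-like cells (49.2% of genes called), 2.16 in Treg-like cells (47.1%), 1.81 in CD8 SP-like cells led by *Nkg7* (58.6%), 1.11 in those led by *Runx3* (43.3%), 0.94 in the Nrgn-led class (43.7%), 0.61 in the Id2-led class (33.3%) and 0.27 in CD4 SP-like cells (51.9%; adjusted p = 0.042, lost when replicate 2, 4 or 5 was left out, and 0.12 with adjusted p = 0.47 without TMM scaling). It was lower in DN-like cells (-1.51, with 46.5% of genes called), the Hist1h1b-led class (-1.13, 70.3%), myeloid-like cells (-1.03, 44.1%; 3 mice, and -0.48 with adjusted p = 0.49 without replicate 5), signaled DP-like cells (-0.89, 37.7%) and the Hells-led class (-0.88, 62.3%). In cycling-like (58.2% of genes called), negative selection-like (52.8%), NKT-like (48.6%) and Amd1-led cells (12.9%) it did not pass. The cycling-like class pools unlike clusters: some were second closest to quiescent DP-like, while another had *Nkg7* and *Amica1* among its leading genes. *S1pr1* gave 3.15 and *Klf2* 3.35 in this class, so its *Foxo1* value is a mean over cells of different stages. With shares of 12.9 to 70.3% of all genes called, a call in these contrasts says little that is particular to *Foxo1*. *S1pr1*, the exit receptor, gave 1.13 in CD4 SP-like cells (adjusted p = 0.063, edgeR). It gave 2.20 in CD8 SP-like cells led by *Runx3* and 6.66 in those led by *Nkg7*. The CD4 SP-like and CD8 SP-like classes need not hold cells of the same stage.

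*Foxp1* and *Foxo3* had other orders. *Foxp1* was highest in the Id2-led class (521.0, 556.4 and 797.4 CPM), followed by mature SP-like (409.3, 437.9 and 640.4), interferon-like (385.9, 466.8 and 656.8) and Treg-like cells (414.8, 457.5 and 532.8), and lowest in NKT-like cells (47.3, 128.2 and 159.2). All neighbours in its order overlapped. Against quiescent DP-like cells (383.6 ± 77.7 CPM) it was higher in 5 classes, by 0.74 in mature SP-like, 0.67 in Id2-led and 0.24 in CD4 SP-like cells (the last 0.065 with adjusted p = 0.57 without TMM scaling, edgeR, and lost without replicate 3 or 4), and lower in 9, by -1.52 in NKT-like, -1.25 in Hist1h1b-led and -0.97 in Nrgn-led cells. With 12.9 to 70.3% of all genes called in these contrasts, the counts say little that is particular to *Foxp1*. In Nrgn-led cells, whose leading genes include *Pdcd1*, *Cd160* and *Il2rb*, *Foxo1* was thus higher and *Foxp1* lower than in quiescent DP-like cells. In CD8 SP-like cells led by *Nkg7*, *Foxp1* gave 0.12 (adjusted p = 0.28), and without TMM scaling -0.28 (adjusted p = 0.0063, edgeR).

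*Foxo3* was highest in DN-like (29.4 and 40.7 CPM), Amd1-led (25.9, 33.4 and 43.9) and quiescent DP-like cells (19.9, 33.4 and 40.0), and lowest in negative selection-like (6.25, 13.4 and 16.8), Hist1h1b-led (6.69, 10.501 and 24.3) and mature SP-like cells (9.56, 12.8 and 17.9). In no contrast did it pass as higher than in quiescent DP-like cells, and it was lower in 8 of 17, by -1.096 in negative selection-like, -1.04 in Hist1h1b-led and -0.85 in mature SP-like cells (adjusted p = 1.6e-04, edgeR). Of all genes, 52.8, 70.3 and 51.6% were called in these 3 contrasts and 12.9 to 70.3% over all contrasts. The count of calls is therefore not particular to *Foxo3*. In mature SP-like cells *Foxo3* was therefore lower, and *Foxo1* and *Foxp1* higher, than in quiescent DP-like cells of the same mice. *Foxo3* had 0 UMIs in the myeloid-like cells of wild-type replicate 1, whose sum allows up to 43.5 CPM.

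**Figure D5:**
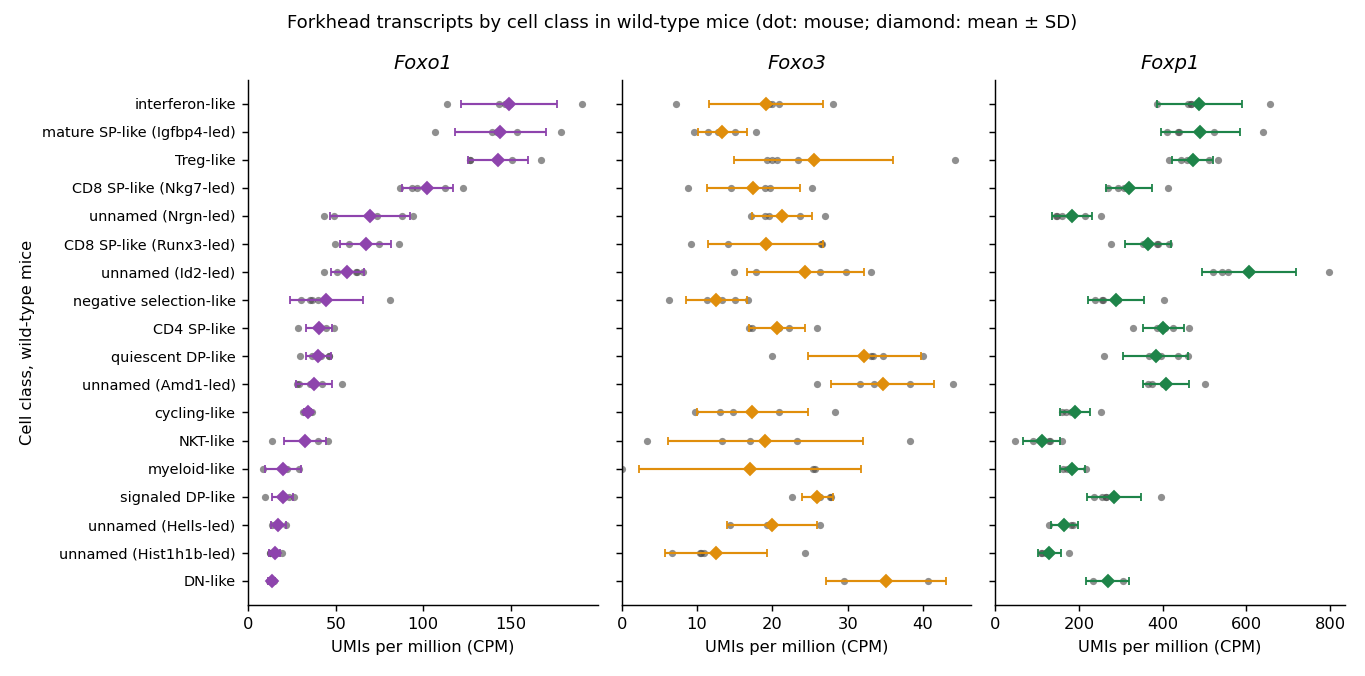
Levels of *Foxo1*, *Foxo3* and *Foxp1* (CPM, horizontal axes) in 18 cell classes of wild-type mice (vertical axis, in the order of *Foxo1*), with a dot per mouse and diamonds with bars for mean ± SD. *Foxo1* runs from 13.3 CPM in DN-like to 149 CPM in interferon-like cells, *Foxp1* peaks at 605 CPM in the Id2-led class, and *Foxo3* is at 35.1 CPM in DN-like and 13.4 CPM in mature SP-like cells.

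Mature classes were also compared within each wild-type mouse. The mature SP-like class led by *Igfbp4* had *Zbtb7b*, a CD4 SP-like marker, among its leading genes. Both OT-I mice, which are CD8-fated, had 74 and 142 cells of it. The paper states that a few cells of lineage-restricted mice, above all where *Rag* is intact, take the other lineage. Whether the class stands for the CD4 lineage alone was not tested. As a share of UMIs (CPM), *Foxo1* was higher in it than in the CD8 SP-like class led by *Nkg7* in 5 of 5 mice (log2 difference 0.49 ± 0.11, SD over mice) and *Foxp1* in 5 of 5 mice (0.61 ± 0.11), while *Foxo3* was higher in 1 of 5 (-0.33 ± 0.42). The median depth was 5278 UMIs in the mature SP-like and 7160 UMIs in the Nkg7-led class. As in bin 5, the CD8-type cells were deeper, and UMIs per cell were not compared between these classes. These wild-type mice did not enter the comparison of the lineages in bin 5.

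Over all cells of a mouse, *Foxo1* was at 59.1 and 75.4 CPM in AND, 30.9 and 64.0 in F5, 63.6 and 77.04 in MHCI-/-, 49.1 and 53.2 in MHCII-/-, 41.3 and 44.5 in OT-II and 72.8 and 85.7 in OT-I mice, 63.1, 70.2 and 71.4 in sorted and 40.3 and 46.6 CPM in unsorted wild-type mice. The sort, which enriches cells past the quiescent DP stage, and the mixture of stages enter these values, so genotypes were compared within a class. Quiescent DP-like cells had 29.0 and 37.8 CPM in AND, 42.5 and 48.9 in F5, 30.4 and 30.5 in MHCI-/-, 34.0 and 37.3 in MHCII-/- and 37.3 and 52.3 CPM in OT-II mice. OT-I mice had 34.5 and 114.2 CPM, the latter the highest of all mice. In signaled DP-like cells *Foxo1* was at 14.96 to 57.4 CPM over the 12 lineage-restricted mice, 9.69 to 26.2 in wild-type mice, and above 30 CPM in both AND and both OT-I mice. In mature SP-like cells led by *Igfbp4* the 8 lineage-restricted mice with enough cells had 99.4 to 166.8 CPM, within the wild-type range of 106.7 to 178.9 except for 1 MHCI-/- mouse at 99.4. Gamma-delta T-like cells, nearly absent from the wild-type samples, had 59.1 ± 14.2 CPM of *Foxo1*, 426.4 ± 42.7 of *Foxp1* and 40.5 ± 9.51 of *Foxo3* over 8 lineage-restricted mice.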

How the data were processed

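Per the labels and the methods of the study, thymocytes of 17 mice were stained with DNA-tagged antibodies and run on 10x 3′ lanes, and the authors counted molecules with Cell Ranger 3.1.0 (build mm10, GRCm38). The deposited values are raw UMI counts per gene and antibody and barcode. Cells were kept by the filters of the study (at least 200 genes, at most 15% mitochondrial UMIs, 1000 to 10000 antibody UMIs, at least 70 antibodies), which left 72054 of 85389 barcodes, and 2786 called doublets (3.87%) were removed.

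Cells were clustered with scanpy 1.11.5 (2000 genes, 30 components corrected for the lane group, Leiden resolution 1.5) and ordered by diffusion pseudotime. The authors' cell annotation was not used here, so class names are rebuilt, and values may differ from the study's for that reason. Resolution, correction and naming rule were set after clusters and cell numbers were seen. The 3 genes, the gene lists and the tests were chosen with earlier results of these data known. Genes named from the lists are those past the threshold and the textbook targets *Klf2*, *S1pr1*, *Ccr7*, *Il7r*, *Rag1* and *Rag2*, and some items are not reported here.

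UMIs were summed per mouse and bin or class (at least 20 cells) and tested with edgeR 4.0.16 (R 4.3.3, TMM, quasi-likelihood, low-count filter), Benjamini-Hochberg adjusted over all genes, threshold 0.05. Bins were compared with the genotype family as covariate, and courses and classes with the mouse as block. Shares and proteins were tested by exact permutation over mice (scipy 1.17.1). The labels do not tie samples to litters or days, but the sample names place AND, F5 and wild-type replicate 1 in 1 experiment and AND and F5 replicate 2 in another, so that in these genotypes replicate and experiment cannot be told apart. Alternatives were DESeq2 1.42.0, RLE scaling, no low-count filter, no family covariate, another order, a replicate block, other depths of thinning and each mouse left out, and 2 added after the data were seen: correction for the experiment alone and no normalization factors.

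On simulated counts for bin 5 (8989 genes) the test recovered 16.4% of genes changed 1.5-fold, 64.2% of those changed 2-fold and 97.0% of those changed 4-fold, and 9.92% of its calls were false. For the CD4-fated course (8663 genes) 8.76%, for the difference between courses (9667 genes) 8.43% and for bin 3 (8688 genes) 4.62% of calls were false, so the 5% aimed at was exceeded in 3 of the 4 simulations. Sums hold counting error of few UMIs for *Foxo3*, with 179 to 896 UMIs per lane, against 461 to 2462 for *Foxo1* and 2830 to 12035 for *Foxp1*.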

Additional observations from a re-analysis of the deposited data

Results flagged for a closer look

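As shares of all UMIs, the courses of *Foxo1* and *Foxp1* over the bins differed between CD4-fated and CD8-fated mice. The differences were 1.01 (log2, adjusted p = 1.9e-08) and 0.46 (adjusted p = 1.2e-04) in edgeR's test of the difference itself. The courses of UMIs per cell were not tested.

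In 12 of 105 groups of 5 or 6 mice (11.4%) the highest mouse stood apart from the others by Dixon's criterion, where chance gives about 1 in 20. Wild-type replicate 5, whose 2 lanes were the shallowest of all (median 1579 and 1519 UMIs per cell passing the filters), was the highest in 6 of these. It had 81.2 CPM of *Foxo1* in negative selection-like cells (next 40.1), 44.2 CPM of *Foxo3* in Treg-like cells (next 23.4) and 24.3 CPM in the Hist1h1b-led class (next 10.9). For *Foxp1* it had 396 CPM in signaled DP-like cells (next 265), 502 CPM in the Amd1-led class (next 402) and 175 CPM in the Hist1h1b-led class (next 126). AND replicate 1 had 90.9 CPM of *Foxo1* in bin 3 (next 66.2), where F5 replicate 1 of the same experiment had 90.5 and AND and F5 replicate 2 had 59.8 and 69.3 CPM. OT-I replicate 2 had 43.2 CPM of *Foxo3* in bin 1 (next 18.7).

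The others were surface proteins, per 10000 antibody UMIs. AND replicate 2 had 26.2, 29.9 and 33.7 of CD127 in bins 1, 4 and 5 (next 5.32, 11.6 and 11.4). Wild-type replicate 1 had 9.85 of CD127 in bin 1 (next 3.58). The causes were not tested.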

How the results depend on the processing

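Of 900 refits of the 3 genes, 824 kept direction and call, 31 lost a call, 16 gained one and 29 changed sign, and over all 1846 single values compared 6 of 85 sign changes had a call on either side. *Foxo1* in bin 2 lost its call without the family covariate (adjusted p = 0.053, edgeR) and *Foxp1* in bin 5 with the order by surface protein (0.14). Few UMIs limit *Foxo3*.

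Genes called between the lineages in bins 1 to 5 numbered 5, 134, 395, 520 and 1193. Without the family covariate they were 0, 45, 136, 216 and 735. Without the low-count filter bins 1 to 4 gave 50, 339, 694 and 895. With the order by surface protein bin 1 gave 24, bin 5 774 and the difference between courses 1118 (main 1975). The replicate numbers did not pair all families (correlations of deviations -2.4e-05 to 0.026 in MHC, 0.031 to 0.16 in AND and F5, 0.41 to 0.52 in OT mice). With a replicate block the bins gave 16, 238, 673, 899 and 1889, and *Foxo1* in bin 5 and *Foxp1* in bin 4 passed (adjusted p = 0.0071 and 0.014, edgeR). Leaving out 1 mouse gave 5 to 14, 54 to 276, 235 to 602, 407 to 694 and 638 to 1596 in the bins, 3061 to 4030 and 4112 to 5623 in the CD4-fated and CD8-fated courses, 1520 to 2095 for their difference, 27 to 32 calls of the 3 genes in the classes fitted under every alternative (main 33), 0 to 4 shares and 0 to 1 of the CD127 tests. The 5 shares called became 1 at 1000 UMIs, 1 at 2500 and 0 unthinned.

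Without normalization factors called genes that rose made up 20.6% in the CD4-fated course (49.3% with them), 26.6% in the CD8-fated course (50.7%) and 33.9% in bin 5 (45.9%), and 23.3% in wild-type mature SP-like cells (48.0%), where all genes shifted by -0.38. The same scaling turned *Foxo3* in the CD4-fated course to -0.18, *Foxp1* in CD8 SP-like cells led by *Nkg7* to -0.28 and by *Runx3* to -0.066, *Foxo1* in NKT-like cells to -0.20 and in cycling-like cells to -0.19, and *Ccr7* in the difference between courses to -0.040.

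Other signs turned as follows, all in log2. The order by surface protein gave *Foxp1* -0.049 in bin 1, *Foxo3* 0.0049, *Klf2* -0.56 and *Rag1* -0.20 in bin 3, *Foxo3* -0.078 in the CD4-fated course, and *Il7r* 0.49 and *Rag1* -0.10 in the difference between courses. Correction for the experiment alone gave *Klf2* 0.11 in bin 2, *Foxo1* 0.0042 and *Foxo3* 0.075 in bin 3, and *Il7r* 0.042 in the difference between courses. The replicate block gave *Foxo3* 0.037 in bin 3. For the difference between courses RLE scaling gave *Ccr7* -0.0081 and *Rag1* -0.016, no low-count filter gave *Rag1* -0.015, and keeping branch cells gave *Ccr7* -0.018. *Foxo3* in DN-like cells was 0.051 with DESeq2 and 0.051 with RLE scaling.

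Share differences turned, in percentage points, at 1000 UMIs to 0.177 and -0.703 for *Foxo1* in bins 3 and 4 and to 0.598, 0.143, 0.202 and 0.030 for *Foxo3* in bins 1 to 4. At 2500 UMIs they turned to 0.995 and 0.409 for *Foxo3* in bins 1 and 4 and 0.948 for *Foxp1* in bin 2. Unthinned they turned to -7.11 and -5.92 for *Foxo1* in bins 4 and 5, -1.80 for *Foxo3* in bin 5 and -1.33, -1.20, -1.31 and -1.44 for *Foxp1* in bins 1, 3, 4 and 5.

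Leaving out 1 mouse turned signs in these ranges: *Foxo3* -0.022 to 0.37 in bin 1, *Foxp1* -0.15 to 0.032 and *Rag1* -0.55 to 0.63 in bin 2, and *Foxo1* -0.22 to 0.029, *Foxo3* -0.14 to 0.16 and *Rag1* -0.34 to 0.79 in bin 3. The difference between courses ranged over -0.25 to 0.48 for *Il7r*, -0.18 to 0.20 for *Ccr7* and -0.22 to 0.27 for *Rag1*. In wild-type classes *Foxo3* ranged over -0.045 to 0.016 (DN-like), *Foxo1* over -0.057 to 0.32 (NKT-like), -0.033 to 0.076 (cycling-like) and -0.032 to 0.15 (Amd1-led), and *Foxp1* over -0.022 to 0.13 (Amd1-led). Shares ranged over -1.38 to 0.10 and -0.646 to 1.03 points for *Foxo1* in bins 1 and 4 and -0.857 to 0.0459 for *Foxo3* in bin 1. The causes were not tested.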
